A study of Mus musculus with 12 samples.

Results

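The 9 genes described here encode the 3 chains of the complement recognition molecule C1q (C1qa, C1qb, C1qc), the protease component C2, the alternative pathway proteins Cfb and Cfp, the central component C3 and the receptors C3ar1 and C5ar1. They were taken by name from the gene column of the array files, which held 10 probes for them, 2 of those for C3. They are 9 of 20370 genes and features tested, and 10 of 39429 probes on the array. All 10 probes were well above background on all 12 arrays, so no member was lost to the filter on dim probes.

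Expression was measured on 12 one-colour arrays with macrophage RNA from pancreatic tumours of mice. In the labels 6 samples are macrophages positive for the yellow fluorescent protein YFP and 6 are negative, here YFP+ and YFP-. All 12 came from female C57/B6 mice of 8 to 10 weeks that had been given tumour implants, and all were sorted by flow cytometry straight into lysis buffer. The design text of the series names FLT3-CRE/LSL-YFP mice beside wild-type and KPC mice. In a mouse of the first kind, Cre recombinase driven by Flt3, a receptor gene of blood cell progenitors, switches on YFP, which is then inherited by the descendants. The genotype is given as not provided for all 12 samples, so the cells in which YFP was switched on are known from the design text alone. A number in each title occurs once in YFP+ and once in YFP-, giving samples 1 to 6 of each group, and the labels do not say whether equal numbers mean 1 animal or different numbers different animals. The spread that p-values are set against is thus that of these 12 samples and could in part be technical.

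Complement is a cascade of plasma proteins and cell surface receptors that tags targets and calls in phagocytes. In the classical pathway C1q binds antibody or altered cell surfaces, its proteases cleave C4 and C2, and the C4 and C2 fragments together form an enzyme that splits C3. In the alternative pathway factor B, encoded by Cfb, takes the place of C2 in the C3-splitting enzyme, and properdin, encoded by Cfp, holds that enzyme together. Fragments released from C3 and C5 act on the receptors C3aR1 and C5aR1 of myeloid cells. Tissue macrophages, those of tumours included, are known as a main source of C1q, while much of the plasma pool of C2, C3 and factor B comes from liver.

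What each value rests on is a single oligonucleotide per gene, and 3 of these are shown because the classical initiator and the alternative enzyme component turn on them. Each is 60 bases long, as the array files give it.

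C1qa: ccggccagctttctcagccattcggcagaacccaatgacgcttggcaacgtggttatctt

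C1qb: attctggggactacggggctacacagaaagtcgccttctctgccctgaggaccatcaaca

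Cfb: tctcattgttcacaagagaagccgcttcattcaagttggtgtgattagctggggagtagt

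Among the 45 pairs that the 10 member probes form, on either strand, the longest run of bases in common was 8 of 60. The probes were not compared with transcripts of related genes, such as the C1q chains or C2 and Cfb. Whether a probe also reads a related gene was thus not tested. In the array annotation, in build mm9, the C1qb probe lies at chr4:136436578-136436637, the C1qc probe at chr4:136445766-136445825 and the C1qa probe at chr4:136452409-136452468. The C2 probe lies at chr17:34999575-34999634, that of C3ar1 at chr6:122798222-122798281, that of C5ar1 at chr7:16832243-16832302 and that of Cfp at chrX:20502742-20502801, and the Cfb probe has no position there. Gene models of mm9 were not used here, so the exon or untranslated region under a probe is not given. The order of start and end in that annotation puts all 9 placed probes on the minus strand. By the RefSeq gene table of GRCm38.p6, used for gene order alone, C1qb, C1qc and C1qa follow one another on chromosome 4, and Cfb and C2 are direct neighbours on chromosome 17.

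Levels are the log2 processed signal of the red channel minus the log2 of that array's 75th percentile, so 0 is the brightness of a probe at that percentile, and differences are YFP+ minus YFP- on the same log2 scale. Because each gene is read by its own probe, levels are compared as amounts only within a gene. The marker sums add unlogged levels of different genes, so the brightest probes weigh most in them. YFP+ arrays were brighter before this scaling, with a 75th percentile of 3264 to 3931 intensity units against 2121 to 3332 in YFP-, and the number of arrays, 6 a group, is one limit on the precision. The 3 slides each held 2 arrays of each group. The summed level of 12 macrophage markers, in multiples of the 75th percentile, was 166 to 247 in YFP+ and 170 to 261 in YFP-. All 12 were above background on every array, so these markers were detected in both groups. Of the 12, 0 passed limma's adjusted test (1 had an unadjusted p under 0.05). Detection in a bulk sample does not show which cells carried them. In bulk samples of this kind, fewer cells of a type and less RNA per cell cannot be told apart.

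Of the 9 complement genes 1, C2, passed the test, and it was lower in YFP+. Over all 20370 genes tested with limma at a Benjamini-Hochberg adjusted p under 0.05, 1.75% were called, 1.41% lower and 0.334% higher in YFP+. The differences of the 9 genes had a median of -0.15 against -0.028 over all genes, and 7 were negative and 2 positive, where 52.8% of all genes were negative. These small signs rest on the scaling: with each array centred on its median instead, the median of all genes moved to 0.18, C1qa, C1qb, C1qc and Cfb turned positive, and 33.5% of the called genes were higher in YFP+ in place of 19.1%. The 6 values of one group lay wholly apart from the 6 of the other for C2 alone, while this held for 1.88% of all genes, and for 1.46% with YFP+ the lower group. C2 was also the one of the 9 with the same sign in all 6 title numbers, as were 8.37% of all genes. An unadjusted p under 0.05 was reached by 1 of the 9, C2 again, and by 11.2% of all genes. For the other 8 genes the 95% intervals below give the sizes of difference that the arrays leave possible, since a p that misses the threshold does not show equal levels.

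**Figure D1:**
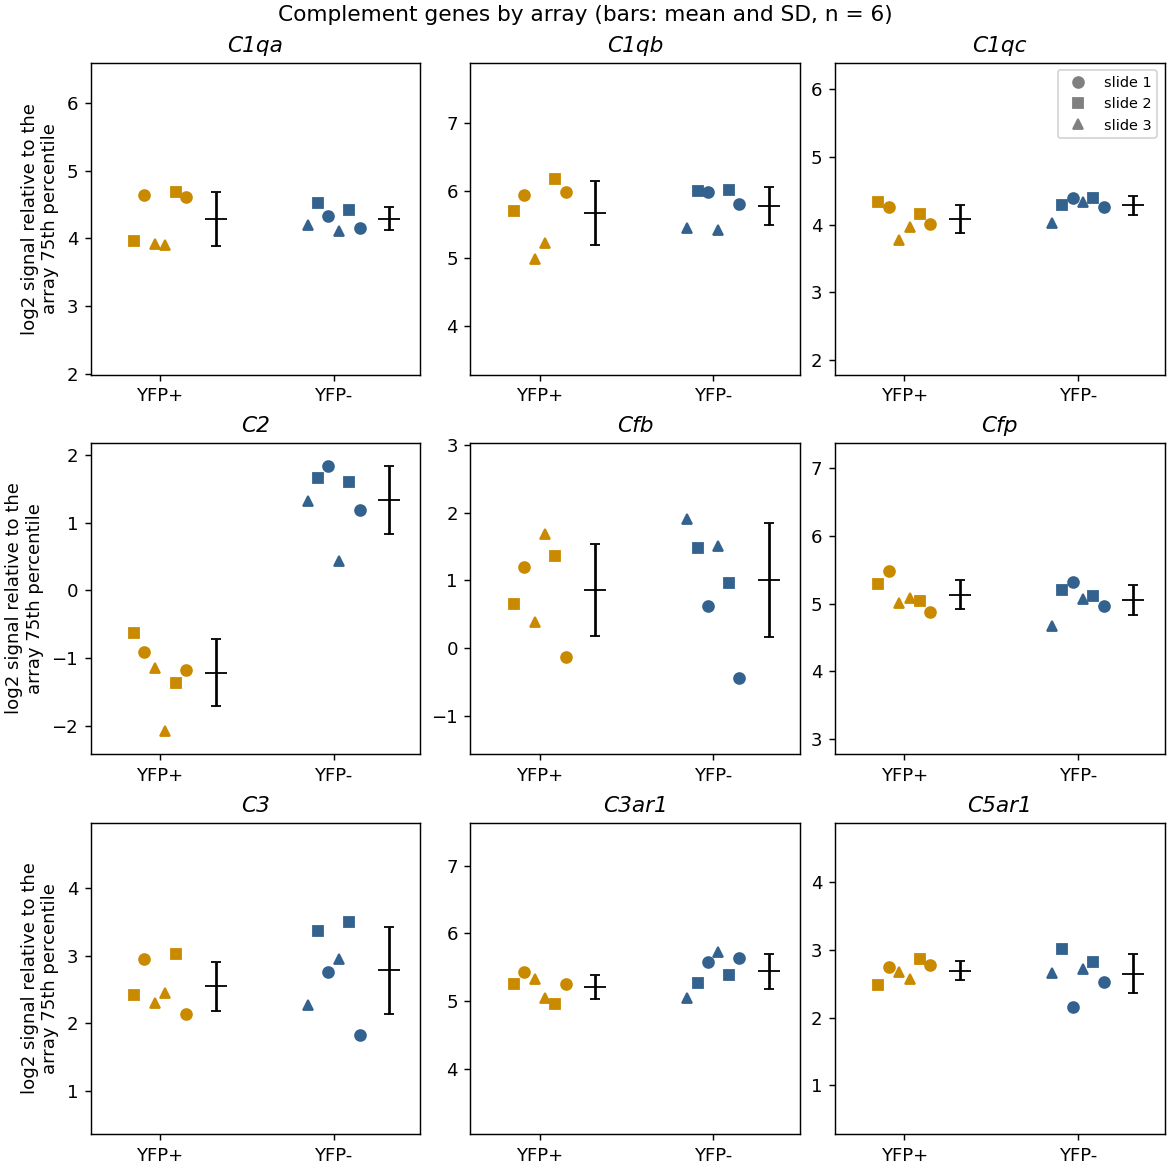
Level of each of the 9 complement genes on every array, on a vertical axis of log2 signal relative to the array's 75th percentile whose span is the same number of log2 units in every panel; points are arrays, shapes mark the slide, and the bars beside each group give the mean and SD of 6 arrays. C2 is the panel in which the groups lie apart, with -2.08 to -0.62 in YFP+ and 0.43 to 1.84 in YFP-, and in the other 8 panels they overlap.

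C1qa, the A chain of C1q, lay at 3.90 to 4.68 in YFP+ (median 4.28) and 4.11 to 4.53 in YFP- (median 4.27). The YFP- range lay inside the YFP+ range, and the difference was -0.0061 (SE 0.20, 95% interval -0.45 to 0.44, n = 6 per group, limma adjusted p = 0.998). C1qb, the B chain, lay at 4.99 to 6.18 in YFP+ (median 5.82) and 5.42 to 6.01 in YFP- (median 5.90). Here too the YFP+ arrays spread more widely on both sides, and the difference was -0.11 (SE 0.24, 95% interval -0.63 to 0.41, limma adjusted p = 0.93). C1qc, the C chain that pairs with another of its kind inside the assembled molecule, lay at 3.77 to 4.34 in YFP+ (median 4.09) and 4.03 to 4.40 in YFP- (median 4.31). Its difference was -0.20 (SE 0.16, 95% interval -0.55 to 0.15, limma adjusted p = 0.74). YFP+ was lower than the YFP- sample of the same number in 5 of 6 numbers for C1qc, and in 3 of 6 for C1qa and for C1qb. The intervals of the 3 chains reached no lower than -0.63 and no higher than 0.44, so a difference of the size found for C2 lay outside them.

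C1qb differed between the slides. On slide 3, C1qb lay at 4.99 to 5.44 on all 4 arrays, below the 5.70 to 6.18 of the 8 arrays of slides 1 and 2. The mean level of C1qb was 5.93, 5.97 and 5.27 on slides 1, 2 and 3, and a limma F test of slide beside the group gave an adjusted p of 0.021, in a test that called 20.6% of all genes and was added after the values were seen. C1qa had means of 4.43, 4.40 and 4.03 (adjusted p = 0.28) and C1qc of 4.23, 4.30 and 4.02 (adjusted p = 0.36), lowest on slide 3 as well but not past the threshold. A slide is only what the array files name it, and samples 3 and 4 of YFP+ and 1 and 4 of YFP- were on slide 3. With slide as a block the 95% interval of the group difference narrowed to -0.41 to 0.19 for C1qb and -0.38 to 0.36 for C1qa.

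**Figure D2:**
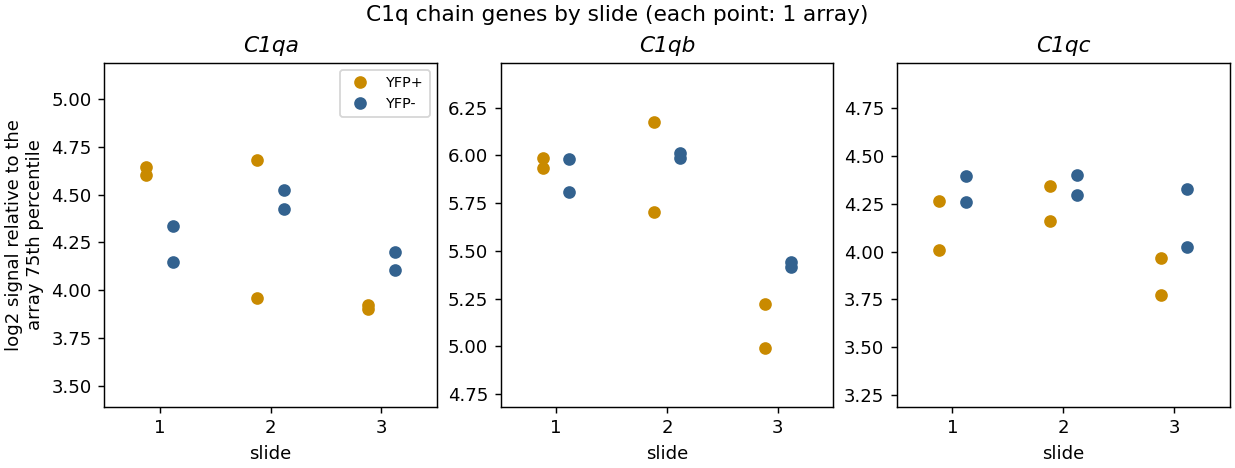
Level of C1qa, C1qb and C1qc on the 12 arrays by slide (horizontal axis) in log2 signal relative to the array's 75th percentile (vertical axis); each point is 1 array, coloured by group, and each panel has its own vertical range. In the C1qb panel the 4 arrays of slide 3 lie at 4.99 to 5.44 and the 8 others at 5.70 to 6.18, in both groups.

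C1qa and C1qb followed each other across the 12 arrays, with a Pearson r of 0.84 and a Spearman rho of 0.86. Taking out the group means left r at 0.85, taking out the slide means left it at 0.79, and 10 arrays without those farthest from the C1qa median gave 0.82. C1qc followed the others less closely, with r of 0.30 with C1qa and 0.64 with C1qb, and these became -0.14 and 0.28 once slide means were taken out. These correlations are descriptions over 12 arrays that share slides and scaling. The log2 ratio of C1qa to C1qb, 2 probes of the same array, varied with an SD of 0.20 over the 12 arrays, against 0.30 for C1qa to C1qc and 0.29 for C1qb to C1qc.

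The genes whose levels were most like the mean of the 3 C1q chains over the 12 arrays were Gnb1, a G protein subunit (r = 0.96), Csf1r, the receptor for the macrophage growth factor CSF1 (r = 0.96), Zfp575 (r = 0.94), the 28S ribosomal RNA feature Rn28s1 (r = 0.94) and Oaz1, an inhibitor of polyamine synthesis (r = 0.93). Their own differences between the groups lay at -0.44 to -0.036 and 0 of 5 passed the test. Genes called most like a member, here and below, are the top of a ranking of named genes over 12 arrays. Slide means were not taken out, and how high r would reach between unrelated genes was not tested.

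Promoter sequence was at hand for 6 of the 9 genes in the RefSeq table, C1qb and C1qc among them, and these are shown because their genes are neighbours and both code for C1q. Each is the 250 bases before the annotated start, 5′ to 3′ on the minus strand, with the PU.1 core GAGGAA, or its reverse complement TTCCTC, in capitals. PU.1 is a transcription factor of the myeloid lineage.

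C1qb, GRCm38.p6 chr4:136886201-136886450: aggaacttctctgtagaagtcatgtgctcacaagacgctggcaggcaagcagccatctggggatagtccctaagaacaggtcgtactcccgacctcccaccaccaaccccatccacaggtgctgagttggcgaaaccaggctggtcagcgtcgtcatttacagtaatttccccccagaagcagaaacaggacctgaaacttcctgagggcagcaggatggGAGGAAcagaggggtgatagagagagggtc

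C1qc, GRCm38.p6 chr4:136892915-136893164: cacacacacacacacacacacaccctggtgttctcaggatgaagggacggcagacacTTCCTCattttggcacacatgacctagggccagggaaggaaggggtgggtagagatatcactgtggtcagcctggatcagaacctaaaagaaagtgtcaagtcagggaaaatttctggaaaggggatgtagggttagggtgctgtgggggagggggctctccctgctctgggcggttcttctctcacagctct

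The core begins 30 bases before the start in C1qb and 193 bases before it in C1qc, on opposite strands. It occurs on either strand in 23.3% of the 32851 promoter windows of the same length, and in none of the windows of the other 4 genes, so its presence in 2 of 6 is a description and not a site. Of the other motifs searched on both strands, the Maf factor element TGCTGA was in the windows of C1qb, C3ar1, C5ar1 and C3 (16.1% of all windows). The TATA box letters TATAAA were in that of C3ar1 (12.4%), beginning 235 bases before the start. A pair of interferon regulatory factor elements, GAAA followed after any 2 bases by GAAA, was in 0 of the 6 (2.98%). These too are matches of letters and not sites.

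C2, the protease precursor whose fragment carries the active site of the classical C3-splitting enzyme, was the member that fell. Samples 1 to 6 of YFP+ had levels of -0.62, -0.91, -1.15, -2.08, -1.37 and -1.17, and those of YFP- 1.31, 1.65, 1.84, 0.43, 1.60 and 1.19. All 6 YFP+ arrays thus lay below the 75th percentile of their array and all 6 YFP- arrays above it, with sample 4 the lowest of both groups. The group means were -1.22 ± 0.50 and 1.34 ± 0.50 (SD, n = 6 each), and C2 was 5.88-fold lower in YFP+ (log2 difference -2.55, SE 0.29, 95% interval -3.19 to -1.92, limma adjusted p = 7.7e-04). Within slides 1, 2 and 3 the difference was -2.55, -2.62 and -2.49, and between samples of equal number it ran from -3.00 to -1.94. By unadjusted p, C2 ranked 32 of the 20370 genes. With each array, or both arrays of each number, left out in turn, the limma adjusted p of C2 stayed between 5.6e-04 and 0.0095. Without slide 1, 2 or 3 it was 0.032, 0.043 and 0.0052, the first values nearer the threshold. With array brightness as a covariate the difference was -2.03 (SE 0.51, limma adjusted p = 0.21) and the call was lost; brightness and group had a Pearson r of 0.84 over the 12 arrays.

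The summed epithelial and fibroblast markers moved with the groups in the same direction as C2. The summed level of the epithelial markers of duct and tumour ran from 7.26 to 14.9 multiples of the 75th percentile in YFP+ and from 19.2 to 47.4 in YFP-. Of the 11 tested 6 fell, beside 1.41% of all genes, while Elf3 was above background on no YFP+ array. The summed fibroblast markers ran from 13.3 to 34.0 in YFP+ and from 50.6 to 132 in YFP-. Of 11 tested 7 fell, beside the same 1.41% of all genes, and Dpt was above background on no array. Most of the fibroblast sum is the collagen genes Col1a1, Col1a2 and Col3a1 (levels 2.40, 2.75 and 2.87 in YFP+, 4.08, 4.59 and 4.59 in YFP-). Pdgfra, Pdgfrb, Thy1 and Fap were also lower in YFP+ but not called (limma adjusted p = 0.14, 0.64, 0.19 and 0.87). Acinar markers summed to 4.06 to 28.4 in YFP+ and 13.0 to 103 in YFP-, and 1 of 9 tested fell. Hepatocyte markers, listed because liver makes much of the plasma C2, summed to 33.5 to 61.4 in YFP+ and 44.5 to 67.3 in YFP-. Of 5 tested 1 fell, beside 1.41% of all genes. Alb and Apoa1 were above background on no array, and Fgb and Ahsg on no YFP+ array. Nearly all of the hepatocyte sum is 1 gene, Trf, which encodes transferrin and is also expressed outside liver (level 5.39 in YFP+ and 5.72 in YFP-). The part of these cells in the C2 difference was not tested. For neutrophil, dendritic cell, B and plasma cell and endothelial markers 0 genes passed limma's adjusted test, and the sums of the groups overlapped. An unadjusted limma p under 0.05 was reached by 6 of 9, 2 of 10, 4 of 10 and 0 of 9, beside 11.2% of all genes. Opposite to C2, 8 of 10 dendritic cell and 7 of 10 B and plasma cell markers had positive differences (medians 0.70 and 0.55). Of the neutrophil and endothelial markers 6 of 9 and 5 of 9 were negative (medians -1.60 and -0.10). Most of the neutrophil sum is 1 gene, Csf3r (level 4.97 in YFP+ and 5.27 in YFP-). Siglech was the brightest of the dendritic cell markers (4.32 and 4.73). The overlap of these sums thus says little of the dimmer markers, and the content of such cells was not tested.

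**Figure D3:**
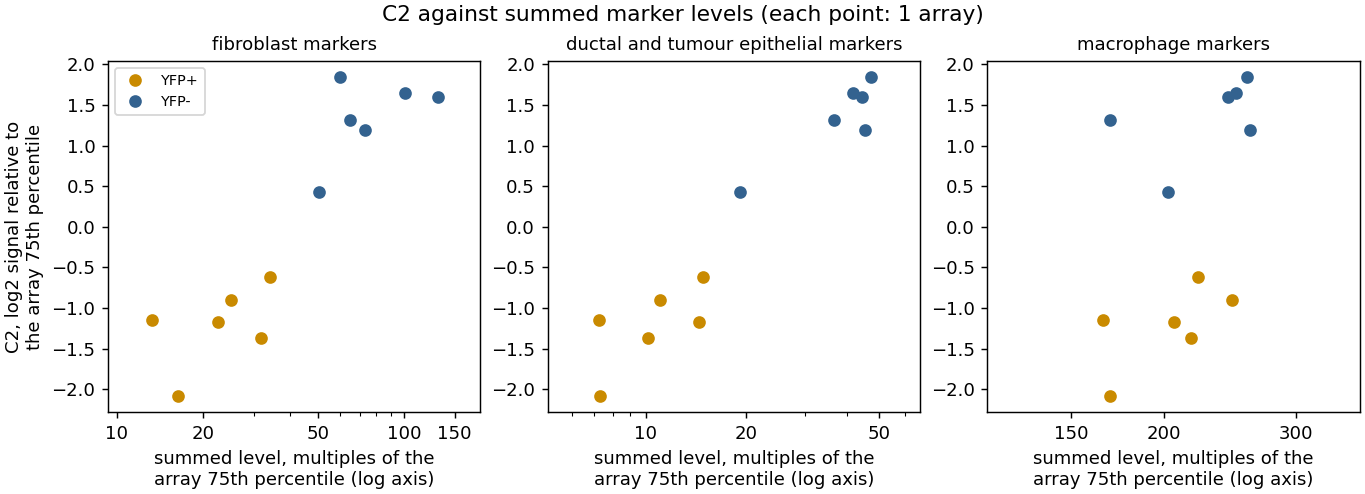
Level of C2 on each array (vertical axis, log2 signal relative to the array's 75th percentile) against the summed level of fibroblast, epithelial and macrophage markers (horizontal log axes, multiples of the 75th percentile); each point is 1 array, coloured by group. The groups lie apart on both axes in the first panels (fibroblast sums 13.3 to 34.0 against 50.6 to 132, epithelial 7.26 to 14.9 against 19.2 to 47.4), and overlap along the macrophage axis (166 to 247 against 170 to 261).

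The genes most like C2 over the 12 arrays were Krtap16-3, named as a keratin-associated protein, Cpe, which encodes the hormone-processing enzyme carboxypeptidase E, and Plat, which encodes tissue plasminogen activator, each with r = 0.98. Part of that likeness is the group difference itself, since all 3 also fell (log2 differences -2.52, -3.21 and -2.99, limma adjusted p = 9.7e-04, 3.2e-04 and 0.0030). With the group means taken out, r was 0.84, 0.81 and 0.89.

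Cfb, whose product stands in the alternative pathway where C2 stands in the classical one, lay at -0.13 to 1.69 in YFP+ (median 0.92) and -0.45 to 1.91 in YFP- (median 1.22). The YFP+ range lay inside that of YFP-, and the difference was -0.15 (SE 0.42, 95% interval -1.06 to 0.76, limma adjusted p = 0.95). The log2 ratio of C2 to Cfb on the same array, a measure picked after both genes had been seen, ran from -3.77 to -1.04 in YFP+ (mean -2.08 ± 1.03) and from -1.08 to 1.64 in YFP- (0.33 ± 1.05; SD, n = 6 each). The groups overlapped slightly, with YFP- sample 4 just below YFP+ sample 6. The difference of -2.41 is that of C2 less that of Cfb and is no separate result. Across the 12 arrays Cfb and C2 had an r of -0.0076. The gene levels most like those of Cfb were of Mrrf, a mitochondrial ribosome recycling factor (r = 0.92), and of the interferon-induced GTPases Igtp (r = 0.90) and Gbp2 (r = 0.86), none past the test between the groups.

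Cfp, which encodes properdin, the stabiliser of the alternative pathway enzyme, lay at 4.88 to 5.48 in YFP+ (median 5.07) and 4.67 to 5.32 in YFP- (median 5.09). The groups overlapped over most of their range, with a difference of 0.077 (SE 0.17, 95% interval -0.30 to 0.45, limma adjusted p = 0.93) and 3 of 6 numbers higher in YFP+. Nfat5, Taf10 and Sdc3 had the levels most like it (r = 0.90, 0.89 and 0.89).

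C3, the protein on which all complement pathways meet, was read by a pair of probes at chr17:57343678-57343737 and chr17:57343416-57343475 of mm9. On the probe used, which had the higher mean, it lay at 2.14 to 3.03 in YFP+ (median 2.43) and 1.83 to 3.50 in YFP- (median 2.86), a difference of -0.23 (SE 0.30, 95% interval -0.89 to 0.42, limma adjusted p = 0.86). The second probe lay at 1.21 to 2.92 in YFP+ (median 2.15) and 1.44 to 3.02 in YFP- (median 2.68), a difference of -0.48 (SE 0.36, adjusted p = 0.71 with every probe tested alone). Both put the YFP- median higher without passing the test, and the groups overlapped on each. Over the 12 arrays the probes had an r of 0.59, which became 0.38 on 10 arrays without those farthest from the median, and they differed most, by 1.15, in YFP+ sample 1. Sample 6 was the lowest of its group in both groups for C3 (2.14 and 1.83 on the probe used) and for Cfb (-0.13 and -0.45), and the 2 genes had an r of 0.53 over the arrays. Slc46a1, which encodes a folate transporter, was the gene most like C3 (r = 0.92), followed by Cyp2d11 and Nav1 (r = 0.87 each).

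C3ar1, the receptor for the C3a fragment, lay at 4.96 to 5.42 in YFP+ (median 5.25) and 5.04 to 5.72 in YFP- (median 5.48). The difference was -0.23 (SE 0.17, 95% interval -0.61 to 0.15, limma adjusted p = 0.71), with 2 of 6 numbers higher in YFP+. C5ar1, the receptor for the C5a fragment, lay at 2.49 to 2.87 in YFP+ (median 2.72) and 2.15 to 3.01 in YFP- (median 2.69). The YFP+ values sat inside the YFP- range, with a difference of 0.041 (SE 0.18, 95% interval -0.34 to 0.43, limma adjusted p = 0.96). Its neighbour on chromosome 7, C5ar2, a second C5a receptor, had a difference of -0.088 (SE 0.17, adjusted p = 0.92). Thsd7b, Cox6a2 and Ctnna1 were most like C3ar1 (r = 0.89, 0.85 and 0.84), and Ttc36, Spaca6 and Dmtf1 most like C5ar1 (r = 0.91, 0.90 and 0.89), none of them called between the groups. Of the 9 genes, C1qb was the one that passed the slide test, which called 20.6% of all genes.

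The wider pathway was described through a list of 57 complement genes that includes the 9. Of these 40 passed the filter and were tested, 0 rose, 3 fell and 37 did not pass limma's adjusted test. Of the 40, 10 had an unadjusted limma p under 0.05, beside 11.2% of all genes. The median difference was -0.20 against -0.028 over all genes. Of the differences 29 were negative and 11 positive, where 52.8% of all genes were negative. Beside C2, the genes that fell were Serping1 and Clu, both known as inhibitors of complement. Serping1 encodes the C1 inhibitor, which removes the C1 proteases. It lay at -2.06 to -0.54 in YFP+ (median -1.21) and -0.48 to 1.96 in YFP- (median 0.88), and the groups did not overlap, though the nearest arrays differed by little. It was 4.36-fold lower in YFP+ (log2 difference -2.12, SE 0.39, limma adjusted p = 0.014). Clu encodes clusterin, a chaperone that also blocks the terminal complex. It lay at 2.01 to 3.65 in YFP+ (median 3.30) and 4.45 to 5.60 in YFP- (median 5.08), again without overlap, and was 4.10-fold lower in YFP+ (log2 difference -2.04, SE 0.34, adjusted p = 0.0092). Neither list nor members were chosen blind to these data, and the count of 3 in 40 stands beside the 1.75% of all genes. Levels lay without overlap for 4 of the 40, the 3 called genes among them, beside 1.88% of all genes. Without slide 1, and without slide 2, C2 was the 1 pathway gene called. Leaving out both arrays of number 2, 5 or 6, or slide 3, lost the call of Serping1, and leaving out number 3 lost that of Clu. With brightness as a covariate 0 were called.

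**Figure D4:**
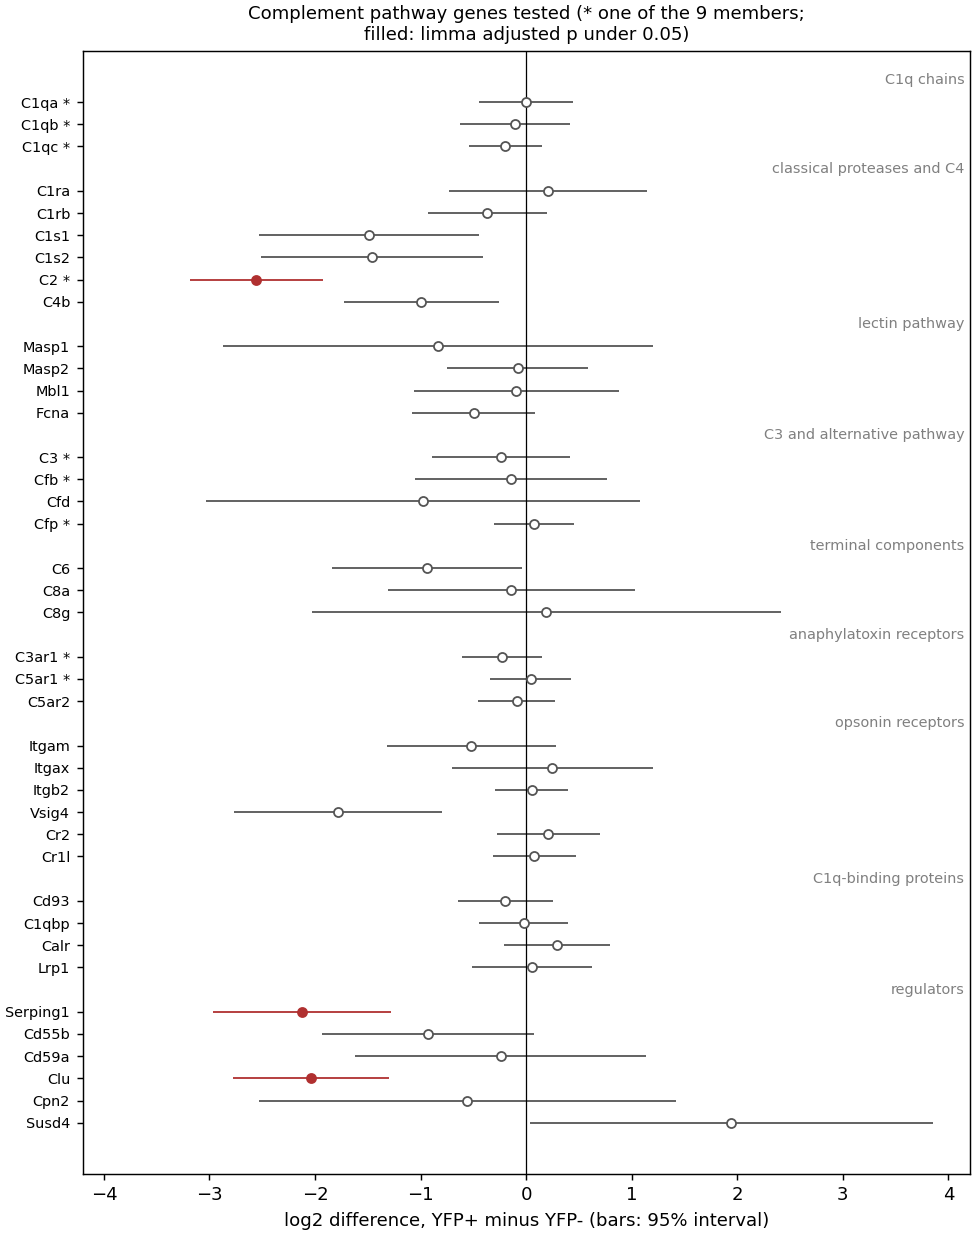
Difference in level, YFP+ minus YFP-, on the log2 scale (horizontal axis) for 39 of the 40 complement pathway genes tested, grouped by role; bars are 95% intervals, an asterisk marks the 9 genes described here, and filled points passed limma's adjusted p under 0.05. The filled points are C2 (-2.55), Serping1 (-2.12) and Clu (-2.04), and the 3 C1q chains and the receptors C3ar1, C5ar1 and C5ar2 lie between -0.23 and 0.041.

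By role, 4 of 6 tested classical proteases and C4 genes had an unadjusted limma p under 0.05, beside 11.2% of all genes. Of the 6, 1 fell (C2), beside 1.41% of all genes, and their median was -1.23. C1s1, which encodes the C1 protease that cleaves C4 and C2, had the smallest p of the others, with a median of -2.02 in YFP+ and -0.99 in YFP- and ranges that overlapped slightly (log2 difference -1.49, SE 0.48, limma adjusted p = 0.20). C1s1 has a near copy, C1s2 (difference -1.46), and how far each probe reads the other gene is uncertain. C4b, the C4 gene on the array, lay at 2.15 to 3.51 in YFP+ and 3.18 to 4.44 in YFP-, a difference of -0.99 (SE 0.34, adjusted p = 0.23); C4a had no probe of its name. Of the 4 lectin pathway genes, 3 terminal components, 6 opsonin receptors and 4 C1q-binding proteins tested, 0 passed limma's adjusted test (0, 1, 1 and 0 had an unadjusted p under 0.05). Among them Fcna, a ficolin of macrophages, differed by -0.50 (SE 0.27, adjusted p = 0.55), C6 by -0.94 (SE 0.41, adjusted p = 0.41) and Calr, a surface ligand of C1q, by 0.29 (SE 0.23, adjusted p = 0.73). Vsig4, a macrophage receptor for C3 fragments, lay at -2.62 to 0.15 in YFP+ and 0.39 to 1.68 in YFP-. The groups did not overlap, as for 1.88% of all genes, but at -1.78 (SE 0.45, limma adjusted p = 0.083) Vsig4 did not pass. It was called with normexp background correction and with an intensity trend and robust variances. Cfd, the protease that activates factor B, differed by -0.98 (SE 0.95, adjusted p = 0.79) and was above background on 4 arrays of each group.

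An unadjusted limma p under 0.05 was reached by 4 of 7 regulators tested, beside 11.2% of all genes. Of the 7, 2 fell, Serping1 and Clu, and 6 differences were negative, beside 1.41% and 52.8% of all genes. Susd4, a membrane regulator, was the exception in sign at 1.94 (SE 0.88, limma adjusted p = 0.43). It was above background on 6 YFP+ arrays and 3 YFP- arrays. It was higher in YFP+ in 6 of 6 numbers, where 8.37% of all genes had the same sign in all 6. The fibroblast and epithelial sums given beside C2 also moved with Serping1 and Clu, and their part in those differences was not tested.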

How the data were processed

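Per the labels' protocols, total RNA of the sorted cells was amplified as cDNA with Sigma-WTA2 and labelled with Cy5 by the Kreatech ULS kit. The deposited intensity values are, per the file headers, red-channel processed signals of Agilent Feature Extraction 11.5.1.1, with background already subtracted and no scaling between arrays. The deposited value table holds, per its values, log2 signals with a median of 8.83 in every column. Its scale and direction matched the scanner values, with a Spearman rank correlation of at least 0.9999 in each column, and it served as an alternative; 0 of its columns were left unused.

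Control spots (1377) and outlier spots (138 to 210 per array) were left out, repeat spots of a probe were averaged on the log2 scale, 35 probes lacking a value on some array were dropped, and each array's log2 75th percentile was subtracted. A gene is its probe with the highest mean among the 25435 that were well above background on 6 or more of the 12 arrays. Accessions of 28330 probes matched the RefSeq gene table, which changed 1403 names. limma 3.58.1 in R 4.3.3 (lmFit, eBayes, group as the only factor) gave differences, standard errors and Benjamini-Hochberg adjusted p over all 20370 genes, with a threshold of 0.05. The random block used statmod 1.5.0. Tables and plots were made in Python 3.11.15 (scipy 1.17.1, matplotlib 3.10.9, with numpy 2.4.6 and pandas 2.3.3).

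The members, the pathway and marker lists and the tests were chosen with earlier results of these data known. Named genes are all members, the pathway genes called, in each role the gene with the smallest p among those not called, and the genes with the highest Pearson r over the 12 arrays with the C1q mean (5) or another member (3 each). On simulated data for the 20370 genes, limma called 15 of 100 genes differing by 1 on the log2 scale, 54 of 100 differing by 2, and 6 of 20170 unchanged ones. Of the regulators 1 counts among those tested and is not reported here. C1s2, C4b, C5ar2 and Susd4 were picked after their values were seen. The slide F test and the C2 to Cfb ratio were added after the values were seen. Samples of the other mice and of normal pancreas in the design text were not analysed here.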

Additional observations from a re-analysis of the deposited data

How the results depend on the processing

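C2 was lower in YFP+ in every setting run, by -2.74 to -2.38 with arrays left out, -2.62 to -2.49 within single slides and -2.59 to -2.03 in the others, and lost its call with array brightness as a covariate (adjusted p = 0.21). Of the 9 members 1 was called otherwise, and 0 with that covariate. The title numbers were not taken as pairs, since the labels do not tie them to animals. Deviations of equal-numbered samples correlated at -0.30 to 0.37 and 3 of 6 matched best. Those were numbers 4, 5 and 6, the ones whose samples shared a slide, so this check cannot tell number from slide. With the number as a block limma called 296 of all genes, C2 among them (adjusted p = 0.0037). It then called 4 pathway genes, C4b being the one added. With a random block it called 431. Pathway calls, 3 in the report, were 0 with brightness and 1 without slide 1 or slide 2 (2 to 3 with arrays left out); 4 were called with normexp, with an intensity trend and robust variances, and at 0.10, Vsig4 being the one added, and 2 at 0.01 and without slide 3. Calls over all genes, 356 in the report, were 556 with slide as a block, 11 with brightness, 547 with normexp, 233 with a filter on all 12 arrays, 562 at 0.10, 143 at 0.01, 151, 112 and 196 without slide 1, 2 or 3, and 204 to 383 with arrays left out.

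For members not called, small differences changed sign. With brightness they were 0.25 (C1qa), 0.47 (C1qb), 0.12 (C1qc), 0.48 (C3) and -0.087 (C5ar1). With normexp C1qa was 0.025 and C1qb 0.031. Quantile normalization gave 0.17 (C1qa), 0.23 (C1qb) and 0.090 (C3ar1), and in the authors' deposited values these were 0.17, 0.23 and 0.091. Median centring gave 0.20 (C1qa), 0.10 (C1qb), 0.0098 (C1qc) and 0.061 (Cfb). C5ar1 was -0.15 without slide 1; C1qa 0.069 and C3 0.0028 without slide 2; C1qa 0.11, C1qb 0.0022 and Cfb 0.12 without slide 3. With arrays left out the differences ran from -0.098 to 0.075 (C1qa), -0.21 to 0.071 (C1qb), -0.058 to 0.11 (C5ar1), -0.44 to 0.076 (Cfb) and -0.032 to 0.15 (Cfp). The cause of these shifts was not tested. With 6 arrays a group, the simulation called 15 of 100 differences of 1 on the log2 scale, over genes of all spreads, and a member's own interval says what its arrays could show. All 10 probes were well above background, so dim signal did not limit these values.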
